A study of Homo sapiens with 18 samples.

Results

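The dihydrouridine synthases are the 4 human enzymes DUS1L, DUS2, DUS3L and DUS4L. They were taken by gene symbol from a table of 17017 genes, and all 4 were found there. The family was selected on measured values of DUS1L, which had shown more RNA and fewer ribosome footprints in both knockdowns than in the control, and the question is whether its 3 relatives did the same. The DUS1L values against the control are therefore given as a description with no test, whereas DUS2, DUS3L and DUS4L entered by name.

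The cells were MDA-MB-231, an established human triple-negative breast carcinoma line. All groups carried lentiviral pLKO.1 particles and were selected with puromycin. They differed in the hairpin, which was a scramble control (SC, read here as the scramble from its label) or 1 of 2 short hairpin RNAs against fibrillarin (FBL), labelled SH2 and SH3. FBL is the methyltransferase that places 2'-O-methyl groups on ribosomal RNA. The labels do not say which hairpin is knockdown 1 and which is knockdown 2. Each of the 3 treatments had 3 libraries of cytoplasmic input RNA (IN) and 3 of ribosome-protected fragments from RNase I digested, cycloheximide-treated lysates, called footprints (RPF), which makes 18 libraries. Nothing in the labels says that replicates came from separate cultures, so the p-values measure the spread between these samples, which may be technical.

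Dihydrouridine synthases use a flavin (FMN) and NADPH to reduce uridines of transfer RNA to dihydrouridine. The reduced base does not stack as a flat uridine does, and it makes the tRNA more flexible where it sits. DUS1L, DUS2 and DUS4L act on uridines of the D loop, the arm that takes its name from this base, and DUS3L acts on the variable loop.

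FBL RNA in the hairpin libraries was between 0.323% and 2.89% of the SC mean and its footprints between 1.46% and 10.7%, so the target was low in every library labelled SH2 or SH3. The IN libraries held 23469830 to 27629488 counts and the RPF libraries 1662705 to 6098648. As a check of the cell line, VIM lay between 4081 and 7223 CPM (counts scaled to a common library size) over the IN libraries. CD44, AXL, CAV1 and MSN, also listed as present in this line, had at least 256, 758, 65.1 and 328 CPM. The hormone receptor genes ESR1 and PGR, listed as low or absent, reached at most 0.0412 and 0.0816 CPM. In the same list CDH1 and FOXA1 reached at most 0.449 and 1.14 CPM. GATA3, also in that list, was present at 7.62 to 13.2 CPM.

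Promoters of the 3 members with testable footprints are printed first, because RNA of DUS1L and DUS2 was higher in the knockdowns while that of DUS3L was not. Each is the 250 bases before the annotated start in RefSeq GRCh38.p14, read 5′ to 3′ on the gene's strand. They lie at chr17:82065805-82066054 on the minus strand for DUS1L, chr16:68023034-68023283 on the plus strand for DUS2 and chr19:5791164-5791413 on the minus strand for DUS3L. Capitals mark matches, on either strand, to 6 motifs. The TATA box was searched with the letters TATAAA, which position the start of transcription in some genes. The CCAAT box, read by its own letters, and the GC box, searched as GGGCGG, are common in promoters rich in CpG. The cAMP response element was searched as TGACGTCA, the ETS factors' core as CCGGAAG, and the E-box of the helix-loop-helix factors was searched as CACGTG.
DUS1L: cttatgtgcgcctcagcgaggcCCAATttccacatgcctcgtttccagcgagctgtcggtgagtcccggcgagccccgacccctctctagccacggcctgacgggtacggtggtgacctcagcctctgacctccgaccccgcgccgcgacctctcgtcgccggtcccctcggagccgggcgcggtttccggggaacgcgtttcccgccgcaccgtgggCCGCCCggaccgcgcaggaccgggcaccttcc
DUS2: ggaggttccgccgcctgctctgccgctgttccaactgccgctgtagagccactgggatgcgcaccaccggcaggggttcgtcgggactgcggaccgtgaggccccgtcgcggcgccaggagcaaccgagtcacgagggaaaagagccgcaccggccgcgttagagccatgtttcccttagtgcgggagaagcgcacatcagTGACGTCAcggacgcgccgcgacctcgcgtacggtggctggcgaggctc
DUS3L: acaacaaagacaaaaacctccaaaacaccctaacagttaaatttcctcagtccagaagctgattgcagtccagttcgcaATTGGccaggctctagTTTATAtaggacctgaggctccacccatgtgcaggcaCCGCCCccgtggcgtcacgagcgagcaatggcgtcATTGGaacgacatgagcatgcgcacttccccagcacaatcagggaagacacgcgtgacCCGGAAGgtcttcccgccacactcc

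The GC content of the DUS1L and DUS2 promoters was 71.6% and 68.4%, with 34 and 32 CpG dinucleotides. The DUS3L promoter had 54.4% GC and 13 CpG. Over all promoters the medians were 58% GC and 11 CpG. The DUS1L window held a CCAAT box and a GC box, motifs that 32.01% and 42.64% of all 35116 promoters in the same table hold in windows of the same length. The DUS2 window held 1 full cAMP response element, found in 1.646% of all promoters. The DUS3L window held a TATA box match on the reverse strand, 2 CCAAT boxes, a GC box and an ETS core. The TATA match begins at position -155 from the start, and whether it acts as a TATA box was not tested. Of all promoters, 10.72% hold the TATA match and 8.517% the ETS core. No match overlapped another, and DUS1L and DUS2 had none of the 6 motifs in common. A match describes the letters only, and a link to the RNA changes was not tested. The DUS4L promoter, with 67.6% GC, held a GC box and none of the other 5 motifs.

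Of the 3 members with testable footprints, DUS1L alone had higher RNA and lower footprints than SC in both knockdowns. Its mean RNA was 104 CPM in the control, 188 with SH2 and 206 with SH3, and its mean footprints were 20.0, 13.3 and 13.9 CPM. DUS2, which makes dihydrouridine in the D loop, rose in RNA in both knockdowns and rose in footprints in SH3. In SH2 its footprint change was not called in the main fit, but was in 3 of 15 alternatives. DUS3L, the variable loop enzyme, did not pass the test in RNA, and its footprints fell in both. DUS4L had too few footprints to be judged.

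**Figure D1:**
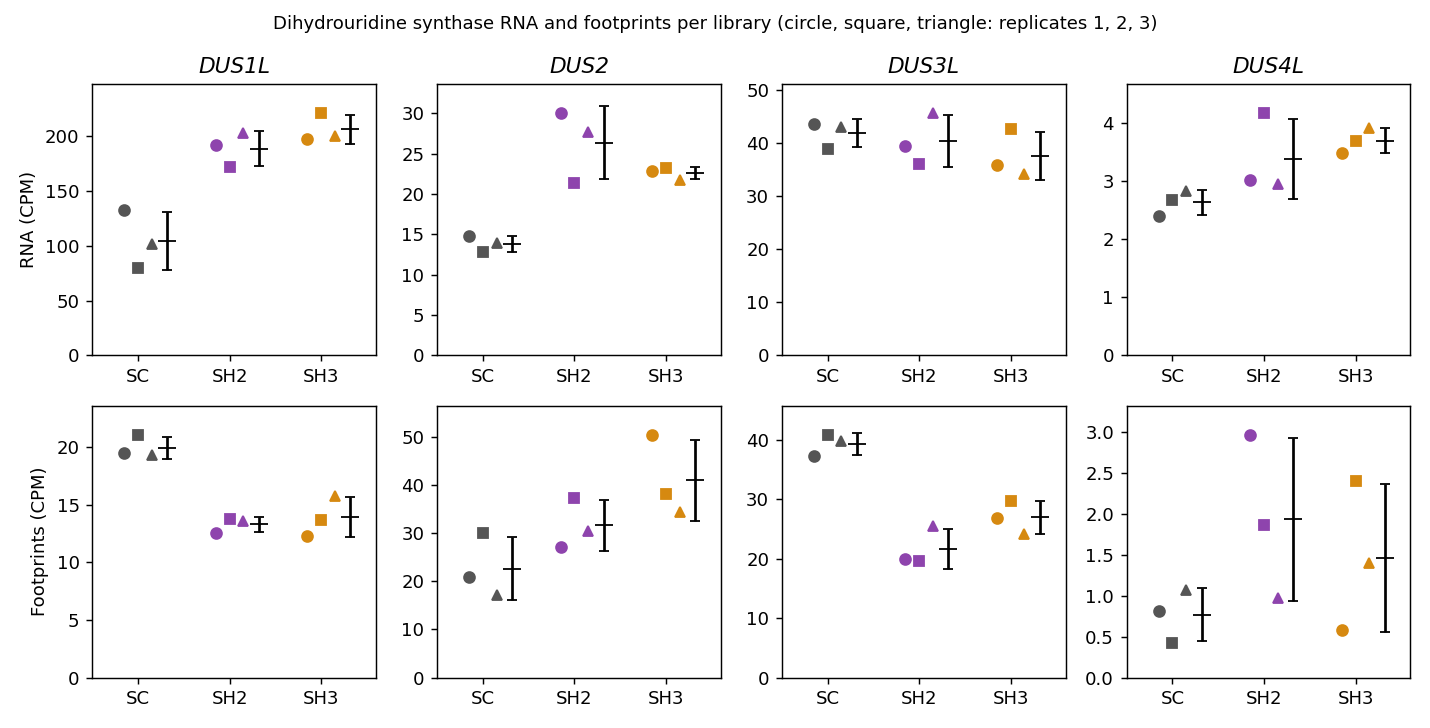
TMM-scaled CPM of each dihydrouridine synthase (columns) in input RNA (upper) and footprints (lower), 1 symbol per library with the mean and SD of the 3 libraries of SC, SH2 and SH3. DUS1L RNA lay at 79.2 to 132 CPM in SC and at 171 to 221 CPM in the knockdowns, while its footprints lay at 19.4 to 21.1 CPM in SC and at 12.3 to 15.8 CPM in the knockdowns.

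DUS1L, a D loop synthase, had 132, 79.2 and 102 CPM of RNA in SC replicates 1, 2 and 3. The SH2 libraries held 191, 171 and 203 CPM and the SH3 libraries 197, 221 and 200 CPM. CPM were scaled with TMM factors within the library kind. Every knockdown library was above every SC library, and SC spread more widely (SD 26.6, n = 3) than SH2 (SD 15.9, n = 3) or SH3 (SD 13.1, n = 3). The log2 change of RNA was 0.85 (SE 0.15) in SH2 and 0.98 (SE 0.15) in SH3. A bulk library cannot tell a change in all cells from a change in some of them.

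DUS1L footprints were 19.5, 21.1 and 19.4 CPM in SC. They were 12.6, 13.8 and 13.6 CPM in SH2 and 12.3, 13.7 and 15.8 CPM in SH3. The groups did not overlap, and the reads behind them were few, 50 to 120 counts per SC library and 21 to 59 per knockdown library. The log2 change of footprints was -0.57 (SE 0.19) in SH2 and -0.50 (SE 0.20) in SH3. In the authors' deposited table the same footprint changes of DUS1L are -0.56 and -0.49, and its RNA changes are 0.84 and 0.96. These values chose the family, so the authors' tests of them are not quoted either.

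The ratio of footprint CPM to RNA CPM of DUS1L in libraries of the same number was 0.147, 0.266 and 0.190 in SC. It was 0.0658, 0.0803 and 0.0671 in SH2 and 0.0624, 0.0620 and 0.0790 in SH3. The highest knockdown ratio was below the lowest control ratio. Translational efficiency, here the change of footprints relative to the change of RNA in 1 fit over all 18 libraries, was -1.43 (SE 0.24) in SH2 and -1.46 (SE 0.24) in SH3 on the log2 scale. The choice of DUS1L fixed the direction of these values. Both knockdowns are set against the same 3 SC libraries, so they are not independent of each other.

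DUS1L started from a low ratio. In SC its mean footprint CPM was 0.191 of its mean RNA CPM, percentile 3.0 of the 10335 genes that passed the filters of both library kinds, whose median was 0.888. The ratio for DUS3L was 0.939 (percentile 53.7) and that for DUS2 was 1.63 (percentile 85.6). The 3 members were thus spread widely over the SC ratios before any knockdown was considered.

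DUS1L was chosen for the same directions in both knockdowns, so the closeness of SH2 and SH3 is a description too. SH2 minus SH3 was -0.13 in RNA (95% interval -0.44 to 0.18) on the log2 scale. For footprints of DUS1L it was -0.075 (-0.51 to 0.36) and for translational efficiency 0.027 (-0.51 to 0.56).

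**Figure D2:**
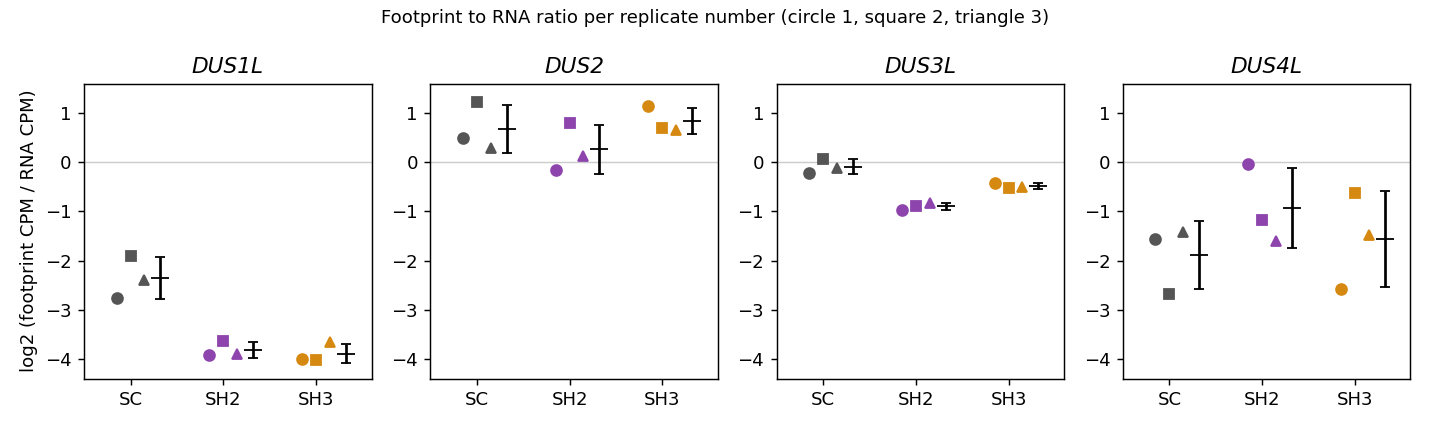
Log2 of footprint CPM over RNA CPM for each member (panels), 1 symbol per replicate number, with the mean and SD of the log2 ratios of the 3 libraries. DUS1L and DUS3L knockdown points lay below all SC points; those of DUS2 and DUS4L overlapped SC.

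DUS2 is the D loop enzyme with a double-stranded RNA binding domain. Its RNA was 14.8, 12.9 and 13.9 CPM in SC, 30.1, 21.4 and 27.7 CPM in SH2 and 22.8, 23.3 and 21.7 CPM in SH3. All 6 knockdown libraries were above all SC libraries. The log2 change was 0.93 (SE 0.13, adjusted p = 3.61e-05 by edgeR) in SH2 and 0.71 (SE 0.13, adjusted p = 0.000511 by edgeR) in SH3, so DUS2 RNA rose in both. The RNA increases were close in size to those of DUS1L.

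DUS2 footprints did not follow the DUS1L direction. SC libraries held 20.9, 29.9 and 17.0 CPM, SH2 libraries 27.0, 37.3 and 30.4 CPM and SH3 libraries 50.3, 38.0 and 34.4 CPM. SH3 lay wholly above SC. SH2 overlapped SC through SC replicate 2, while each SH2 library was above the SC library of its own number. Footprints of DUS2 rose in SH3 by 0.88 (SE 0.22, adjusted p = 0.00640 by edgeR). In SH2 the change was 0.54 (SE 0.22, adjusted p = 0.0610 by edgeR); with the replicate number as a block, which pairs SC with SH2, it was called (0.53, SE 0.20, adjusted p = 0.0354 by edgeR). Without SC replicate 2 it was 0.74 (adjusted p = 0.00846 by edgeR).

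The DUS2 ratio of footprints to RNA was 1.41, 2.33 and 1.23 in SC, 0.899, 1.75 and 1.10 in SH2 and 2.20, 1.63 and 1.58 in SH3. Groups overlapped throughout. Translational efficiency of DUS2 differed from SC by -0.39 (95% interval -0.92 to 0.14, adjusted p = 0.454 by edgeR) in SH2 and by 0.19 (-0.34 to 0.72, adjusted p = 0.822 by edgeR) in SH3. Neither passed, and both intervals lay above the -1.43 and -1.46 of DUS1L, whose direction its choice fixed. Whether the 2 genes differ was not tested. Between the hairpins, DUS2 differed by 0.22 in RNA (adjusted p = 0.186 by edgeR), by -0.34 in footprints (adjusted p = 0.279 by edgeR) and by -0.58 in translational efficiency (adjusted p = 0.382 by edgeR). The RNA difference was 0.38 (adjusted p = 0.0159 by edgeR) without SH2 replicate 2, the lowest of the SH2 libraries.

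DUS3L, the synthase of the variable loop, did not pass the test in RNA in either knockdown. SC held 43.6, 38.9 and 43.1 CPM, SH2 39.4, 36.0 and 45.7 CPM and SH3 35.8, 42.7 and 34.3 CPM. The groups overlapped. The log2 change of DUS3L RNA was -0.052 (95% interval -0.30 to 0.20, adjusted p = 0.713 by edgeR) in SH2 and -0.16 (-0.41 to 0.096, adjusted p = 0.282 by edgeR) in SH3. Both intervals lay below the DUS1L estimates, which were chosen for their direction. Whether DUS3L and DUS1L differ was not tested.

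DUS3L footprints were 37.3, 40.9 and 39.8 CPM in SC, 20.0, 19.6 and 25.6 CPM in SH2 and 26.9, 29.8 and 24.2 CPM in SH3. All 6 knockdown libraries were below all SC libraries, on 97 to 230 counts per SC library and 46 to 87 per knockdown library. Footprints fell by 0.86 in SH2 (SE 0.17, adjusted p = 0.000950 by edgeR) and by 0.54 in SH3 (SE 0.17, adjusted p = 0.0246 by edgeR) in log2 units. The SH3 call was lost without SC replicate 3 (-0.52, adjusted p = 0.0761 by edgeR), SH3 replicate 1 (-0.52, adjusted p = 0.0583 by edgeR) or SH3 replicate 3 (-0.45, adjusted p = 0.114 by edgeR).

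The DUS3L ratio of footprints to RNA was 0.857, 1.05 and 0.923 in SC, 0.508, 0.544 and 0.560 in SH2 and 0.751, 0.698 and 0.706 in SH3. No knockdown ratio reached the SC range. Translational efficiency fell by 0.82 in SH2 (SE 0.20, adjusted p = 0.0230 by edgeR), and in SH3 the change was -0.37 (SE 0.20, 95% interval -0.78 to 0.038, adjusted p = 0.456 by edgeR). The SH2 call of DUS3L was lost without SC replicate 2 (adjusted p = 0.0504 by edgeR), SC replicate 3 (0.0883), SH2 replicate 1 (0.0776) or SH2 replicate 3 (0.0537), and when only SC and SH2 entered the fit (0.0536). The direct difference between the hairpins was -0.45 (95% interval -0.87 to -0.017, adjusted p = 0.411 by edgeR), so SH2 and SH3 are not shown to differ for DUS3L.

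DUS4L, a D loop synthase, was scarce. Its RNA was 2.41, 2.68 and 2.83 CPM in SC, 3.02, 4.18 and 2.95 CPM in SH2 and 3.48, 3.69 and 3.91 CPM in SH3. The knockdown libraries were all above the SC libraries, by little in SH2. The log2 change was 0.36 (SE 0.19, adjusted p = 0.126 by edgeR) in SH2 and 0.48 (SE 0.19, adjusted p = 0.0488 by edgeR) in SH3. The SH3 call of DUS4L was lost in 10 of 15 alternatives, among them DESeq2 (0.46, adjusted p = 0.0852) and the fits without any 1 of the 3 SC libraries, any 1 of the 3 SH3 libraries or SH2 replicate 3, with adjusted p from 0.0247 to 0.163 over all 15.

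DUS4L footprints amounted to 5, 1 and 6 counts in SC, 8, 8 and 3 in SH2 and 1, 7 and 4 in SH3. They did not pass the filter on low counts of the footprint fit, and no difference was detectable at this depth. In the joint fit, which DUS4L entered through its RNA, translational efficiency was 0.79 (95% interval -0.37 to 1.94, adjusted p = 0.494 by edgeR) in SH2 and 0.44 (-0.82 to 1.69, adjusted p = 0.827 by edgeR) in SH3. These intervals lay above the DUS1L estimates, which were chosen for their direction, but rest on 1 to 8 footprint counts per library. Whether DUS4L and DUS1L differ was not tested. The readthrough gene DUS4L-BCAP29, which shares sequence with DUS4L, had 0 to 2 counts per IN library.

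**Figure D3:**
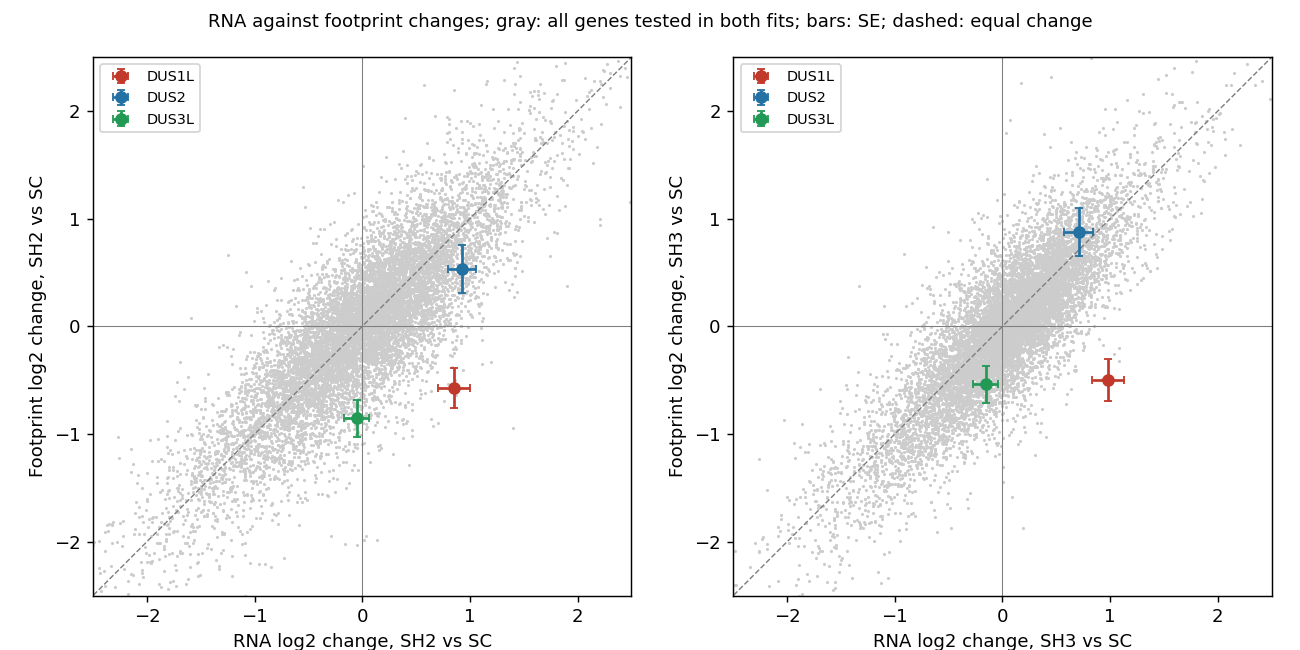
Log2 change against SC of RNA (horizontal) and footprints (vertical) in SH2 and SH3 (panels) for DUS1L, DUS2 and DUS3L, with bars of SE. Gray points are all genes tested in both fits, and the dashed line marks equal change. DUS4L is not drawn. DUS1L lay above 0 in RNA and below 0 in footprints, DUS2 above 0 in both, and DUS3L near 0 in RNA (-0.052 and -0.16) and below 0 in footprints (-0.86 and -0.54).

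Among the 3 members that entered by name, RNA was called higher for 1 in SH2 (DUS2) and for 2 in SH3 (DUS2 and DUS4L). Over all 12710 genes tested, 31.1% and 27.8% were called higher in RNA, and 30.4% and 25.2% lower, so such a call is common in these cells. Of the 2 with testable footprints, DUS3L was called lower in both knockdowns, against 23.2% of 10345 genes in SH2 and 19% in SH3, and DUS2 was called higher in SH3, against 16.9%. Translational efficiency was called lower for DUS3L in SH2, where 2.46% of 12531 genes were, and for none of the 3 in SH3, where 0.311% were. None was called higher, as 1.44% and 0.375% of genes were. Between the hairpins none of the 3 was called in any measure tested, against 39.3% of genes for RNA, 23.8% for footprints and 0.016% for translational efficiency. With so few members these shares do not set the family apart from other genes. How many of all genes have groups that do not overlap was not counted. A member's groups lying apart is therefore a description only.

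Opposed calls were rare in the whole data. RNA called higher with footprints called lower occurred in 29 of 10335 genes in SH2 (0.281%) and 6 in SH3 (0.0581%). DUS1L was chosen on these same values, so its own calls are not given and nothing is read from them. None of DUS2, DUS3L and DUS4L was in either group. By sign alone, 378 genes (3.66%) had RNA above 0 and footprints below 0 in both knockdowns, and 1 gene (0.00968%) met both calls in both, the endosomal GTPase RAB5C. Its RNA call in SH3 (0.23, adjusted p = 0.0486 by edgeR) was lost in 12 of 15 alternatives, DESeq2 (adjusted p = 0.0707) and the fit without SH3 replicate 3 (0.220) among them.

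The genes whose levels ran most like DUS1L over the 18 libraries, on log2 CPM centred within library kind, were PPP1R12C (Pearson r = 0.908), CAPN15 (0.848), PACS2 (0.838), GFER (0.835) and EXOSC4 (0.830), of 10335 genes. PPP1R12C, a regulatory subunit of myosin phosphatase, had 113 ± 14.1 CPM of RNA in the control, 217 ± 23.6 with SH2 and 191 ± 14.2 with SH3 (SD, n = 3). Its footprints were 22.3 ± 0.870, 16.9 ± 0.802 and 19.4 ± 4.19 CPM (SD, n = 3). Means in the directions of DUS1L follow from picking the gene by its r to DUS1L. Its SH3 footprints, 16.4 to 24.2 CPM, overlapped those of SC, 21.5 to 23.2 CPM. The likest genes for DUS2 were CCDC28B (0.946) and KMT5C (0.935), and for DUS3L the RNA polymerase subunit POLR2L (0.912) and PRELID1 (0.905). Among the members, r was 0.31 for DUS1L with DUS2, 0.33 for DUS1L with DUS3L and -0.37 for DUS2 with DUS3L. These 18 points share 3 treatments and their depth, and the r are descriptions only. DUS4L was not compared, for want of footprints.

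Other genes that modify tRNA were taken as a list of 83, all in the table. In RNA, SH2 had 27 of 82 tested genes called higher and 18 lower, whereas SH3 had 33 called higher and 7 lower. Over all genes tested, 31.1% were called higher and 30.4% lower in SH2, and 27.8% and 25.2% in SH3, and the counts of the groups below are to be read against these shares. The list's median log2 change was 0.034 in SH2 and 0.18 in SH3, beside 0.012 and 0.034 over all genes tested. In footprints, SH2 had 11 of 79 called higher and 13 lower, and SH3 had 9 and 4, against 21% and 23.2% of all genes in SH2 and 16.9% and 19% in SH3, with medians of -0.028 and -0.0023 beside -0.0042 and -0.014 over all genes. Without SC replicate 3 the 9 called higher in SH3 footprints became 5. Without SH2 replicate 2 or 3 the 13 called lower in SH2 footprints became 8 or 7. In RNA, the 7 called lower in SH3 became 11 without SH2 replicate 2.

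Enzymes of the wobble uridine, the first anticodon base, were called higher in RNA in 6 of 14 and lower in 1 of 14 in each knockdown. Their example is CTU1, a thiolation enzyme, with RNA at 1.46 and 0.97 in SH2 and SH3 (adjusted p = 2.48e-06 by edgeR and 0.000135) and footprints at 0.99 and 0.92 (0.00295 and 0.00804). Unlike DUS1L, CTU1 rose in both. Its footprint call in SH3 was lost without SH3 replicate 3 (0.64, adjusted p = 0.0770 by edgeR).

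Enzymes that act next to the anticodon were called higher in RNA in 6 of 15 in SH2 and 7 of 15 in SH3, and lower in 3 and 1. YRDC, which makes the precursor of threonylcarbamoyladenosine, rose in RNA (1.29 and 0.71) and footprints (1.15 and 0.57; the SH3 footprint call was lost without SC replicate 3, adjusted p = 0.0533 by edgeR). TYW3, of wybutosine synthesis, fell in RNA (-1.42 and -0.79) and footprints (-1.45 and -1.01) in both knockdowns. These 2 moved in both library kinds in the same direction.

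Among tRNA methyltransferases, SH2 had 10 of 34 called higher and 9 lower in RNA, whereas SH3 had 16 called higher and 3 lower. TRMT10B rose in RNA by 1.07 and 1.19 in SH2 and SH3, and TRDMT1, a cytosine methyltransferase, fell by 0.51 and 1.07. Footprints of TRMT1L rose by 0.93 and 0.46; the SH3 call was lost without SC replicate 3, SH3 replicate 1 or SH3 replicate 2 (adjusted p = 0.103 by edgeR, 0.101 and 0.0507). Among 10 pseudouridine synthases, 3 were called higher and 4 lower in RNA in SH2, and 2 and 1 in SH3. TRUB1, which acts on the T loop, stood at -0.35 and -1.42 in RNA and -0.73 and -1.40 in footprints. All 4 of its values passed; the SH2 RNA call was lost with plain library totals and without SC replicate 3, SH2 replicate 1 or SH2 replicate 3 (adjusted p = 0.0914 by edgeR, 0.0561, 0.0763 and 0.0554), and the SH2 footprint call without SH2 replicate 2 or 3 (0.0963 and 0.0700). Of the 9 remaining enzymes (deamination, queuosine, acetylation and other), 2 were called higher and 1 lower in RNA in each knockdown.

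For translational efficiency, edgeR called 0 of 82 tRNA modification genes higher and 2 lower in SH2, and 0 in SH3, where DESeq2 called 1 lower. The list's medians were -0.12 and -0.11, beside -0.019 and -0.044 over all genes. The 2 called in SH2, named after their values were seen, were GON7 (-1.04, adjusted p = 0.0197 by edgeR), a subunit of the KEOPS complex, and WDR4 (-1.06, adjusted p = 0.0287 by edgeR), the partner of the guanosine methyltransferase METTL1. Both calls were lost without SC replicate 1 or 3 and without SH2 replicate 1 or 3, that of WDR4 also without SH2 replicate 2. With the lysate as block, which joins IN and RPF of the same treatment and number, the adjusted p by edgeR was 0.0683 for GON7 and 0.0992 for WDR4.

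**Figure D4:**
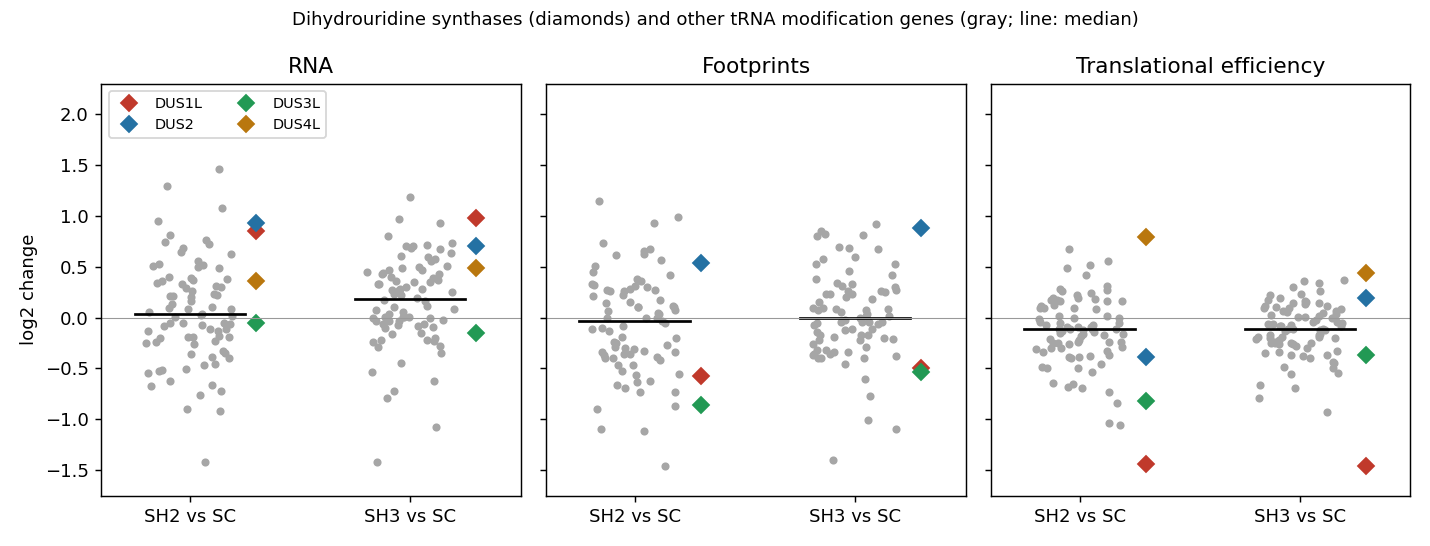
Log2 changes against SC of tRNA modification genes (gray points, line at their median) and of the dihydrouridine synthases (diamonds) in RNA, footprints and translational efficiency. DUS1L stood at -1.43 and -1.46 in translational efficiency, a direction its choice fixed, DUS3L at -0.82 and -0.37, and DUS4L footprints are not plotted.

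Flavin is the cofactor of all 4 synthases, and 3 of 5 genes of its uptake and synthesis could be tested. The riboflavin transporter SLC52A2 rose in RNA by 0.91 and 0.51 in SH2 and SH3 (without SH3 replicate 2 the latter was 0.39, adjusted p = 0.0517 by edgeR). Its footprints did not pass, at 0.34 in SH2 and -0.47 in SH3 (adjusted p = 0.275 and 0.151 by edgeR), where the SC libraries ran from 115 to 289 CPM. They were called in SH2 without SC replicate 2 (0.74, adjusted p = 0.00403 by edgeR), and in SH3 without SC replicate 1 (-0.73, adjusted p = 0.00782 by edgeR) or with no filter (adjusted p = 0.0227 by edgeR). FAD synthase FLAD1 rose in RNA by 0.74 and 0.68. Its footprints stood at 0.46 in SH2 (adjusted p = 0.0557 by edgeR) and were called there with the replicate block (0.48, adjusted p = 0.0354 by edgeR) or without SC replicate 1 (0.61, adjusted p = 0.0272 by edgeR). In SH3 the FLAD1 footprints rose by 0.55 (adjusted p = 0.0355 by edgeR), a call lost without SC replicate 2 or 3 or SH3 replicate 2 or 3 (adjusted p from 0.0535 to 0.153). Riboflavin kinase RFK, which makes the FMN these enzymes bind, fell by 0.62 and 0.80 in RNA and by 0.90 and 1.29 in footprints.

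Neighbouring genes were read for comparison with each member's RNA. GPS1, next to DUS1L, rose in RNA by 0.60 and 0.73 and in footprints by 0.59 and 0.64 (adjusted p = 0.00381 by edgeR and 0.00301 for footprints), so it was higher in both kinds where DUS1L was higher in RNA alone. Its translational efficiency was -0.015 and -0.072. DDX28, next to DUS2, rose in RNA by 0.34 and 0.70, the former lost without SC replicate 1, SC replicate 3 or SH2 replicate 3 (adjusted p = 0.0705 by edgeR, 0.0624 and 0.0633). NFATC3, on the other side of DUS2, fell by 0.55 in SH2 and stood at -0.12 in SH3. FASN, on the other side of DUS1L, stood at -0.22 and -0.19 in RNA and was not called, but without SH2 replicate 3 it was called in SH2 (-0.40, adjusted p = 0.0267 by edgeR). FASN footprints stood at -0.41 in SH2 (adjusted p = 0.126 by edgeR) and were called lower in SH3 (-0.63, adjusted p = 0.0286 by edgeR). COG5, next to DUS4L, fell by 0.30 in SH2, a call lost with plain library totals and without SH2 replicate 3 (adjusted p = 0.0934 and 0.0535 by edgeR). In SH3 it stood at -0.062. The genes on either side of DUS3L had at most 73 counts in any IN library. PRR22 rose in RNA by 1.57 in SH2 (adjusted p = 0.000444 by edgeR) and stood at 0.67 in SH3 (0.0982), and NRTN fell by 1.25 and 0.80 (0.00151 and 0.0232), while DUS3L RNA was not called. The SH3 call of NRTN was lost without SC replicate 2 or 3 or SH3 replicate 3 (adjusted p = 0.0577, 0.0837 and 0.0995 by edgeR). SLC26A4, the other neighbour of DUS4L, fell by 1.11 in SH2 (adjusted p = 0.00213 by edgeR) on 16 to 67 counts per IN library. In SH3 it rose by 0.62 (adjusted p = 0.0366 by edgeR), a call lost with DESeq2 (adjusted p = 0.0788) and without SC replicate 3, SH2 replicate 3 or any 1 SH3 library (adjusted p from 0.0553 to 0.172).

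**Figure D5:**
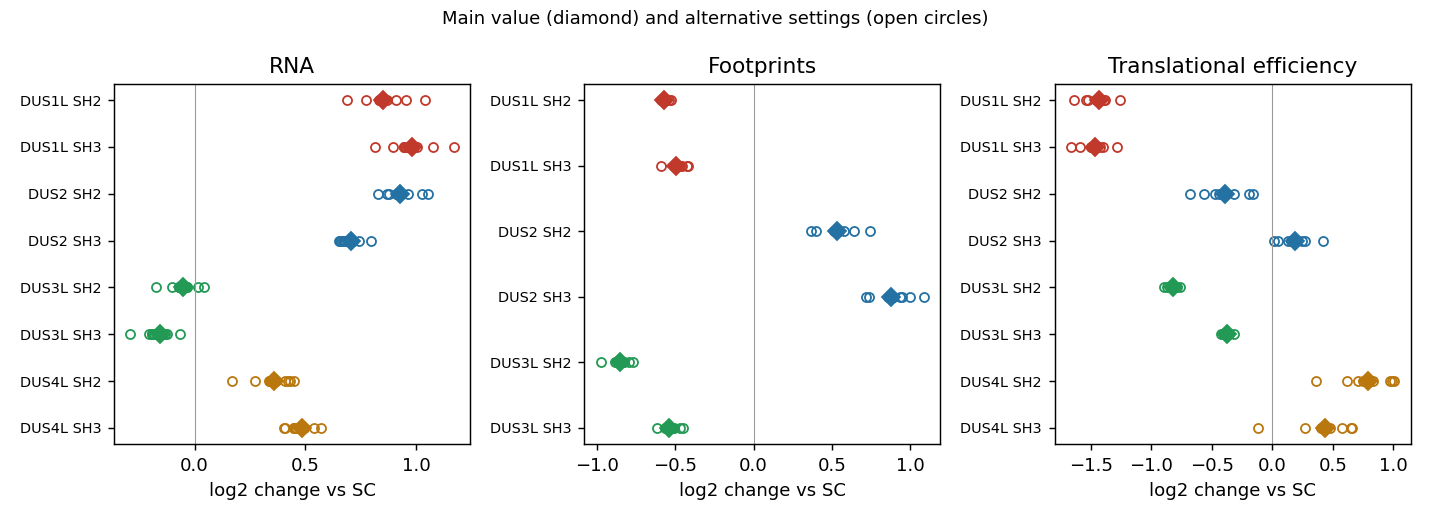
Log2 changes against SC of each member as reported (diamonds) and under each alternative setting (open circles), for RNA, footprints and translational efficiency. DUS1L lay at 0.69 to 1.17 in RNA, -0.59 to -0.42 in footprints and -1.66 to -1.25 in translational efficiency over the settings drawn. Its choice on these same libraries fixed the directions, so their constancy is a description only.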

How the data were processed

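Input RNA and footprint libraries of SC, SH2 and SH3 (3 replicates each) were analysed. The raw counts per gene are the authors' deposited whole-number counts. The deposited normalized signal, log2 fold changes and p-values are the authors' DESeq2 output, per the file headers. Only log2 fold changes of DUS1L are quoted from it. Bowtie 1.2.2 and DESeq2 are named in the submitters' processing notes; annotation, build and counter are not given in the sources used here. In the deposited table the ratio columns of SH2 and SH3 are identical in all 17017 genes, so they were not used.

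Counts were tested with edgeR 4.0.16 (R 4.3.3): filterByExpr, TMM factors, quasi-likelihood F test, Benjamini-Hochberg adjustment over all genes tested, two-sided, called at an adjusted p below 0.05. RNA and footprints each had 1 fit of 9 libraries, translational efficiency 1 fit of 18 with the interaction as contrast. SE is the log2 change divided by the root of F. Replicates varied by 11.6% (IN) and 15.1% (RPF), the common coefficient of variation in edgeR. Replicates of a group differed beyond counting noise (chi-square per degree of freedom 3.55 to 58.7 over 18 pairs). On simulated data for SH2 against SC, the fits recovered 100, 84 and 68 of 100 genes changed by 1 log2 unit in RNA (12673 genes), footprints (10250) and translational efficiency (12469). Of the unchanged genes 9, 6 and 14 were called. The changed genes were drawn from abundant ones, and all genes of a library kind shared the same spread. Far fewer genes changed than were called in the data. Recovery of scarce genes such as DUS4L, or of smaller changes, was not simulated. Alternatives were RLE scaling or plain totals, no filter, DESeq2 1.42.0, fits of 2 treatments, replicate blocks and leaving out each replicate.

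Same-numbered SC and SH2 libraries deviated together (r 0.30 to 0.36 in IN, 0.25 to 0.30 in RPF, every pair above 0.1), so their numbers were taken to pair them. Those of SH3 with SC or SH2 did not all pass 0.1. The main fits hold no block and so leave this pairing out. The block by number, an alternative, covers all 9 libraries of a kind, SH3 included.

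Members and gene lists were chosen with earlier results of these data known. Named list genes are up to 3 per direction called in both knockdowns with the highest or lowest mean change. Named like genes are the 5 with the highest r to DUS1L and the 2 highest for each other member (log2 CPM, prior count 3). Neighbours come from the RefSeq GRCh38.p14 gene table, which matched 16447 symbols.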

Additional observations from a re-analysis of the deposited data

How the results depend on the processing

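Footprints were few: DUS4L had 1 to 8 footprint counts per library and DUS1L 21 to 120. Directions against SC held for DUS2 in every alternative. They also held for DUS1L, whose directions its choice fixed, so nothing is read from that. DUS4L RNA in SH3 was not called with RLE scaling (0.46, edgeR adjusted p = 0.0598), DESeq2 (0.46) or no filter (0.49), and ran from 0.41 to 0.54 with 1 replicate left out. DUS2 footprints in SH2 were called with no filter (0.53, edgeR adjusted p = 0.0333) and with the replicate block (0.53, edgeR adjusted p = 0.0354), and ran from 0.37 to 0.74 with 1 replicate left out. DUS3L translational efficiency in SH2 was -0.81 (edgeR adjusted p = 0.0536) with only 2 treatments and -0.87 to -0.76 with 1 replicate left out; its footprints in SH3 ran from -0.62 to -0.45. The causes were not tested.

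With plain library totals the sign turned for DUS3L RNA in SH2 (0.042), DUS1L translational efficiency between hairpins (-0.022) and COG5, a neighbour of DUS4L, in SH3 RNA (0.027). With 1 replicate left out, DUS3L RNA in SH2 ran from -0.17 to 0.017, DUS2 RNA between hairpins from 0.12 to 0.38, DUS1L footprints between hairpins from -0.15 to 0.024 and DUS1L translational efficiency between them from -0.073 to 0.15. DUS4L translational efficiency ran from -0.12 to 0.66 in SH3 and from -0.070 to 0.91 between hairpins; DESeq2 gave it no adjusted p.

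Over all genes, translational efficiency in SH2 was called for 489 (181 higher, 308 lower), with plain totals for 129 higher and 476 lower, with DESeq2 for 355 and 555, with the lysate as block for 191, and with the replicate number as block for 755. In SH3 it was called for 47 higher and 39 lower, with DESeq2 for 163 and 186, with the lysate as block for 23, and with the number as block for 150. Between hairpins edgeR called 2, 0 with the lysate block and 75 with the number block, and DESeq2 129 higher and 90 lower. Genes with RNA called higher and footprints called lower in both knockdowns numbered 1, 0 with RLE scaling, DESeq2 or 2 treatments, 3 with plain totals, 6 with the replicate block, and 0 without SC replicate 3 or any 1 hairpin replicate. tRNA modification genes called lower in translational efficiency in SH2 numbered 2, 4 with plain totals, 5 with DESeq2 (and 1 higher), 1 with 2 treatments, 0 with the lysate block and 0 or 1 without SC replicate 1 or 3 or any SH2 replicate; those called lower in SH3 RNA numbered 7, and 11 with 2 treatments.

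Same-numbered libraries correlated from -0.083 to 0.43 in IN and from -0.12 to 0.31 in RPF (above 0.1 in 7 and 5 of 9 pairs), with all pairs of SC and SH2 above 0.1 and not all pairs with SH3. A library correlated best with its own number in 14 of 18 checks in IN and 10 of 18 in RPF. IN and RPF libraries of the same treatment and number were read as 1 lysate, which the titles do not state. Those pairs correlated from -0.49 to 0.50, above 0.1 in 5 of 9. The ratios per number and the lysate block rest on this reading. The replicate block moved calls from 7805 to 8353 (IN) and from 4576 to 5018 (RPF) in SH2, and changed no other member's call.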
